A study of Mus musculus with 6 samples.

Results

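The type I interferon response genes followed here are 45 genes that cells switch on after interferon alpha or beta binds its receptor. They were taken from the 45808 rows of the deposited count table by gene symbol: antiviral effectors, sensors of foreign nucleic acid and genes of the ISGF3 transcription factor, with the interferon-inducible GTPases of the Gbp and Irg families left out. Each of the 45 symbols matched a row, and 42 had enough counts to be tested. The libraries came from T cells of the spleen of mice on the C57BL/6 background at 2 months of age, stimulated in culture with antibodies to CD3 and CD28 plus IL-2, a T cell growth factor. In 3 libraries the genotype was wild type. In the other 3 it was Drp1-/-, here called KO, a deletion of Drp1, the mitochondrial fission GTPase, whose gene is Dnm1l. Strain background, age, stimulation and tissue were the same in both groups. No Cre driver is named in the labels. Nor do they say whether replicates were separate animals or cultures, so each p-value reflects no more than the scatter among these libraries, which may be technical.

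Type I interferons act through the receptor chains Ifnar1 and Ifnar2 and the kinases Jak1 and Tyk2, which lead to the assembly of ISGF3, a complex that contains Stat2 and Irf9. ISGF3 enters the nucleus and binds an interferon response element in the promoters of the genes it induces. Their products sense viral RNA and DNA, degrade RNA, block translation and restrict viral assembly, and several of them feed back on the pathway. Activated T cells make interferon gamma rather than type I interferon as their main interferon, and interferon gamma induces part of the same gene set.

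The letters of the element can be seen around the starts of the genes with the largest called changes among those that hold a match. The search used GAAANNGAA, a pair of the half-sites that interferon regulatory factors bind, which reads TTCNNTTTC on the opposite strand. RefSeq promoter windows of 300 bases (250 before to 50 after the start, GRCm38.p6) were found for 33 of the 45 genes. The others are Dhx58, Zbp1, Ifi204, Oas2, Mx1, Mx2, Usp18, Parp9, Parp14, Ifi27l2a, Rtp4 and Tor3a. Each line below reads 5′ to 3′ on the strand of the gene, with the matching letters in capitals, and touching or overlapping matches run together. The first 3 are the largest rises among called genes with a match, Ifit1 is added because the matches of Eif2ak2 lie inside the transcribed part, and the last 2 are the only falls with one. The Ifi44 stretch is chr3:151749905-151749933 (minus strand), the Oas1a stretch chr5:120907526-120907565 (minus), the Eif2ak2 stretch chr17:78882534-78882560 (minus), the Ifit1 stretch chr19:34640760-34640833 (plus), the Phf11b stretch chr14:59341352-59341400 (minus) and the Trim25 stretch chr11:88999374-88999402 (plus).
Ifi44: aaacagaggaaaagtttctcTTCATTTTC
Oas1a: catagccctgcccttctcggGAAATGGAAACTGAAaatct
Eif2ak2: cgccggGAAAACGAAACAGAAgagaac
Ifit1: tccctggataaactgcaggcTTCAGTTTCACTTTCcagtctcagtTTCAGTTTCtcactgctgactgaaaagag
Phf11b: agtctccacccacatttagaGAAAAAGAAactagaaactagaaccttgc
Trim25: ccagggcgccgcccctcctgTTCAGTTTC
Oas1a holds 2 overlapping matches, the first 20 bases before the start of transcription. Eif2ak2 also holds 2 that overlap, beginning 18 and 24 bases after the start. Ifit1 holds 3, from 109 to 84 bases before it. The single match of Ifi44 begins 3 bases before the start and runs past it.

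Of the 33 genes with a window, 18 (54.55%) held the motif on either strand, against 9.761% of 27025 genes of the same table and 8.579% of the 9675 tested genes with a window. It was present in 11 of 21 genes that were higher in KO, 2 of 5 that were lower and 4 of 6 that did not pass the test. Isg15 and Ifit3 held 3 matches each, and Bst2, Ifih1, Oas3 and Slfn5 held 2. The windows of Oasl2, Xaf1, Cmpk2 and Samhd1, which are among the genes with the largest changes, held none of these letters. The palindrome TTCNNNGAA, the letters of the gamma-activated site of interferon gamma target genes, occurred in 7 of the 33 genes (21.21%), against 9.554% of all genes of the table. A gene with several windows counted once, and a match describes letters only.

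Total counts ran from 24738017 to 34730475 per library. Dnm1l itself fell from 119 ± 3.76 to 95.3 ± 4.56 CPM (counts scaled to a common library size with edgeR's TMM factors; SD, n = 3 each), with a log2 fold change of -0.32 ± 0.05 (SE). A gene count also holds reads of exons that a deletion leaves in place, and their part in the remaining level was not tested. The libraries of a group differed by more than sampling noise (chi-square per gene 2.54 to 13.2), with wild-type replicate 1 the farthest from the others of its group. Xist, the RNA of the inactive X chromosome, had 0, 3 and 1 counts in wild type and 16862, 12950 and 14744 in KO, while 4 Y-linked genes summed to 12484 to 13424 counts in wild type and 8799 to 10759 in KO. The KO libraries therefore held both Xist and Y-linked RNA, sex is not among the labels, and genotype and this difference cannot be told apart. None (0) of the 45 genes lies on chromosome X or Y, which does not separate genotype from this difference. T cell markers were abundant in every library, with summed levels of 4570 to 4635 CPM in wild type against 4090 to 4132 in KO. Of these 12 genes, 9 were called lower in KO and 1, Thy1, higher, beside 26.1% and 26.7% of all tested genes.

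More of these genes rose than fell in KO, and those that rose most were genes with few counts. Besides the barely detected Ifi44, the genes Xaf1, Oasl2, Cmpk2 and Mx1 were 2.67- to 4.09-fold higher, while Dhx58 and Samhd1, the latter by far the most abundant of the group in CPM, fell to 0.487 and 0.611 of the wild-type level. At a Benjamini-Hochberg adjusted p under 0.05 over all 14209 genes tested (edgeR, quasi-likelihood F test), 28 of the 42 tested genes were higher in KO, 6 were lower and 8 did not pass. The background was large: 26.7% of all tested genes were called higher and 26.1% lower. The median log2 fold change was 0.47 over the 42 genes and 0.01 over all genes tested. Ifi44 passed the count filter only through the KO libraries, so it had to differ, and Ifi204, Ifit3 and Rtp4 did not pass it. With no filter, over all 45 genes, 28 were again higher and 6 lower, against 16.2% and 15.7% of the 24039 genes then tested; Rtp4 gained a call and Trim30a lost its call. Of all calls among the 14209 genes, 50.6% were higher in KO, and 62.0% with library totals alone as the scaling.

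All 3 KO libraries lay above all 3 wild-type libraries in 29 of the 42 genes, and below them in 7; among all tested genes the shares were 32.5% and 30.8%. A called rise of at least 2-fold was found for 8 of the 42, against 2.42% of all tested genes, and 1 gene, Dhx58, fell by as much. Such rises were more frequent at low levels. Under a mean of 5 CPM they were found for 7 of 16 interferon genes and 278 of 4202 tested genes. The 8 include Ifi44, which had to be higher to be tested. Most changes were smaller than 2-fold, and for 14 of the 34 called genes the change was under 1.5-fold. In a bulk culture, a change in the number of cells that express a gene and a change in its RNA per cell cannot be told apart: for the genes that rose, more such cells or more RNA in each, and for those that fell, fewer cells or less RNA.

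**Figure D1:**
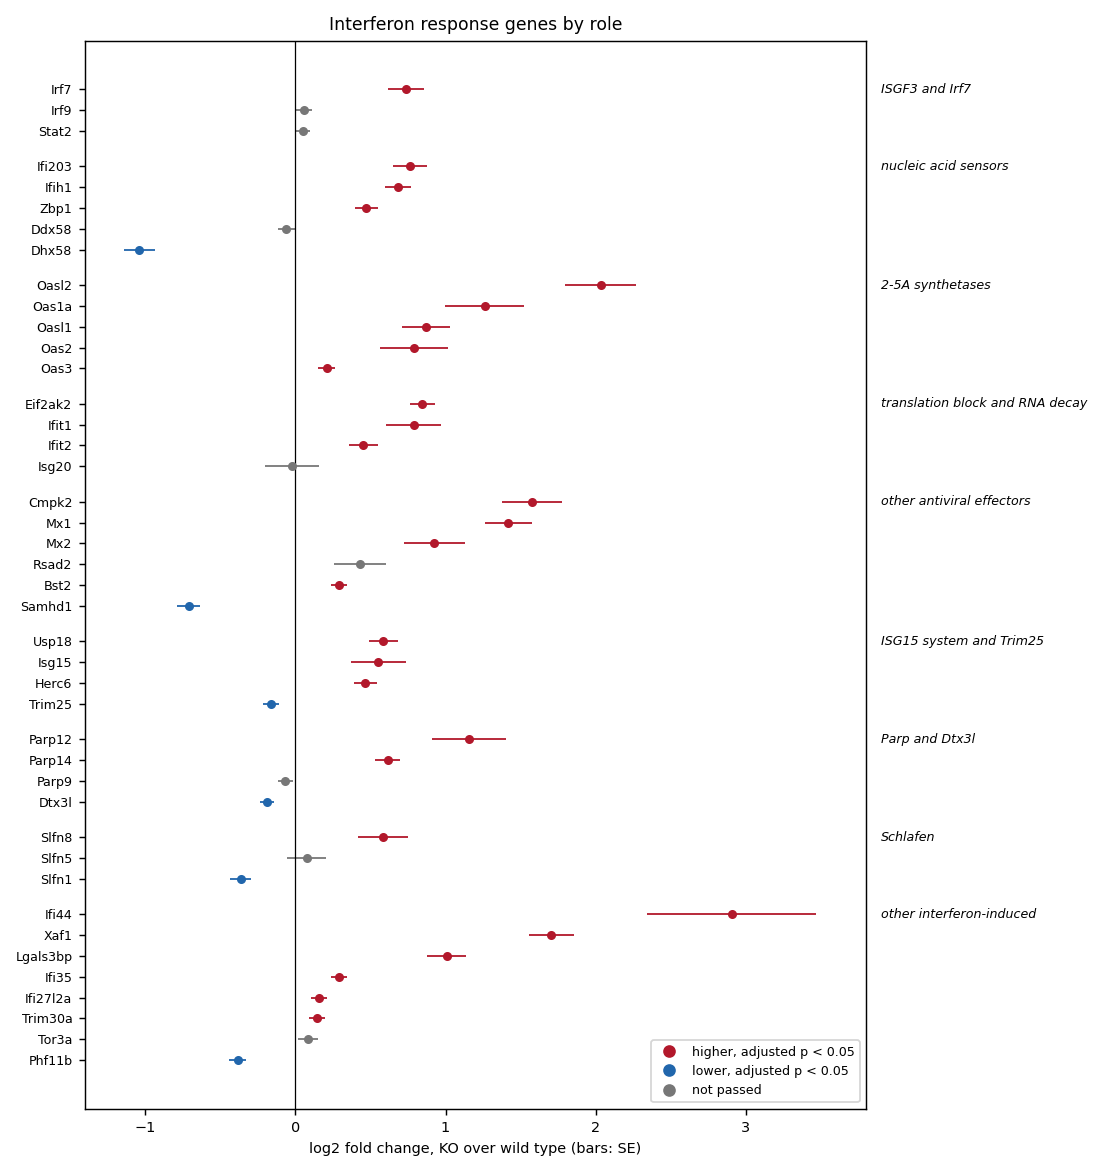
Log2 fold change (x axis, KO over wild type) with its standard error (bars) for the 42 tested interferon response genes, grouped by role; red and blue points passed the test at an adjusted p under 0.05 and grey points did not. All 5 2-5A synthetase genes shown are red, and the 6 blue points are Dhx58, Samhd1, Trim25, Dtx3l, Slfn1 and Phf11b.

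Neither Stat2 nor Irf9, the ISGF3 genes of the group, had a called change. Stat2, which carries the transactivation domain (chr10:128270559-128292849; gene positions are of GRCm38, the same build as mm10), stood at 122, 114 and 112 CPM in wild-type replicates 1 to 3 and 122, 118 and 120 CPM in KO replicates 1 to 3. The KO libraries lay inside the range of the wild-type libraries, with a log2 fold change of 0.05 ± 0.05 (edgeR adjusted p 0.446), though with library totals alone it was called higher (0.12, adjusted p 0.0423). Irf9, the DNA-binding subunit, also overlapped, at 38.8 ± 1.26 CPM in wild type against 40.3 ± 1.15 in KO (log2 fold change 0.06 ± 0.05). Irf7, the factor that amplifies interferon gene transcription (chr7:141262706-141266481), read 3.70, 3.09 and 3.14 CPM in wild type and 5.79, 5.42 and 5.26 CPM in KO. Its KO libraries all lay above the wild-type ones, a rise of 0.74 ± 0.12 on the log2 scale (edgeR adjusted p 0.000607).

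Among the sensors, both the steepest fall of the group and several rises were found. Dhx58 encodes LGP2, a RIG-I-like helicase that lacks the signalling domain of its relatives and modulates their activity (chr11:100694884-100704271). It read 45.8, 36.2 and 36.9 CPM in wild type and 21.2, 17.4 and 18.9 CPM in KO. The groups stood well apart, with wild-type replicate 1 the highest library, and the log2 fold change was -1.04 ± 0.10 (edgeR adjusted p 5.61e-05). Ifih1, the helicase MDA5 that senses long double-stranded RNA, moved the other way. Its levels were 9.96, 10.6 and 12.02 CPM in wild type and 16.7, 18.6 and 17.5 CPM in KO, with no overlap and a rise of 0.68 ± 0.09. Ddx58, which encodes RIG-I, was at 38.4 ± 2.13 CPM in wild type against 36.8 ± 0.364 in KO and did not pass the test; its log2 fold change of -0.06 ± 0.06 turned to 0.014 with library totals alone. The 3 RIG-I-like helicases thus gave 3 different results in the same libraries: a fall, a rise and no called change. Zbp1, a sensor of Z-form nucleic acid that can trigger cell death, rose from 18.2 ± 1.02 to 25.3 ± 1.90 CPM (0.47 ± 0.08). Ifi203, a member of the DNA-binding PYHIN family, rose from 5.88 ± 0.507 to 10.03 ± 1.04 CPM (0.76 ± 0.11). Ifi204 of the same family was near zero, with 5 counts over the wild-type libraries and 6 over the KO libraries, and was not tested.

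The 5 tested 2-5A synthetase genes of the group all rose, by very different amounts, while Oas1b, from outside it, did not pass. These enzymes answer double-stranded RNA by making the short oligoadenylates that activate RNase L, and the Oasl genes encode relatives of them. Oasl2 (chr5:114896936-114912234) read 0.341, 0.503 and 0.761 CPM in wild type and 2.02, 2.39 and 2.42 CPM in KO. Even the lowest KO library was above the highest wild-type library by a wide margin, and the log2 fold change was 2.03 ± 0.24 (edgeR adjusted p 0.000123). Oasl1, its neighbour 11.0 kb away on the same strand, rose less, from 2.13 ± 0.468 to 3.93 ± 0.178 CPM (0.87 ± 0.16). Oas1a rose from 0.413 ± 0.122 to 0.973 ± 0.118 CPM (1.26 ± 0.26). Because 57.6% of its exonic 50-base words also occur in another gene, chiefly Oas1g, its count depends on how reads with several matches were treated. Oas2 rose from 0.457 ± 0.0445 to 0.797 ± 0.0469 CPM (0.79 ± 0.23, edgeR adjusted p 0.0143), but not by DESeq2 (adjusted p 0.102) or without wild-type replicate 2 (adjusted p 0.0508). Oas3, 3.24 kb from Oas2, was far more abundant. It read 73.8, 73.9 and 82.5 CPM in wild type and 92.0, 85.4 and 88.4 CPM in KO. The lowest KO library was only slightly above the highest wild-type one, and the rise of 0.21 ± 0.06 (adjusted p 0.0135) lost its call without wild-type replicate 2 (adjusted p 0.0570) or KO replicate 1 (adjusted p 0.0596).

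Genes that act on translation and RNA rose in part. Eif2ak2 encodes PKR, the kinase that stops translation when it binds double-stranded RNA (chr17:78852564-78882573). Its levels were 20.7, 23.2 and 25.9 CPM in wild type and 39.4, 43.8 and 42.9 CPM in KO. The groups did not overlap, and the log2 fold change was 0.85 ± 0.08 (edgeR adjusted p 5.33e-05). The Ifit genes encode tetratricopeptide proteins that bind foreign RNA. Ifit1, whose promoter stretch with 3 matches is printed above, read 1.19, 1.24 and 1.33 CPM in wild type and 2.60, 1.84 and 2.06 CPM in KO. KO replicate 1 was the highest, all KO libraries were above wild type, and the rise was 0.79 ± 0.18. Ifit2 rose from 11.8 ± 1.56 to 16.2 ± 0.477 CPM (0.45 ± 0.10). Ifit3, 7.11 kb from Ifit2, had 16 counts over wild type and 26 over KO, too few for the filter, and shares 51.2% of its 50-base words, chiefly with Ifit3b. Isg20, an RNA exonuclease, was level at 4.16 ± 0.988 and 4.14 ± 0.681 CPM, and its log2 fold change of -0.02 ± 0.18 turned to 0.051 with library totals alone and to 0.20 or 0.095 without wild-type replicate 3 or KO replicate 1.

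**Figure D2:**
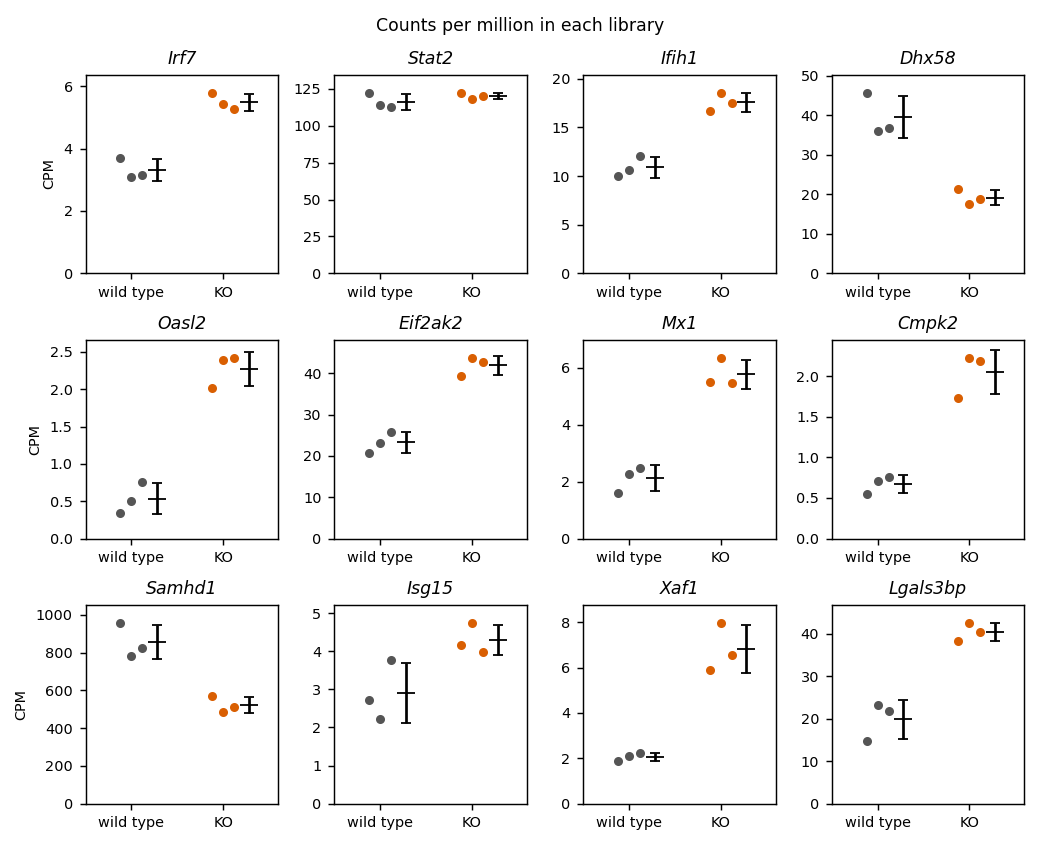
CPM (y axis, from 0) of 12 interferon response genes in the 3 wild-type (grey) and 3 KO (orange) libraries, one point per library in replicate order, with the mean and SD beside them. Stat2 overlaps between genotypes; Dhx58 and Samhd1 lie lower and the other 9 genes higher in every KO library than in any wild-type library.

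Most of the remaining antiviral effectors rose, while the most abundant of them fell. Samhd1 encodes a nucleotidase that degrades deoxynucleotides and so limits reverse transcription (chr2:157097533-157135265). It read 957, 784 and 825 CPM in wild type and 569, 487 and 512 CPM in KO. Every KO library was below every wild-type library, and the log2 fold change was -0.71 ± 0.08 (edgeR adjusted p 9.20e-05). Cmpk2, a mitochondrial nucleotide kinase (chr12:26469204-26479837), read 0.553, 0.705 and 0.761 CPM in wild type and 1.74, 2.22 and 2.18 CPM in KO. Its groups were far apart relative to their spread, a rise of 1.57 ± 0.20 (adjusted p 0.000184). Rsad2 encodes viperin, which makes a chain-terminating nucleotide, and lies 12.8 kb from Cmpk2 on the opposite strand. It read 1.19, 1.07 and 0.952 CPM in wild type and 1.48, 1.39 and 1.43 CPM in KO. Although these groups do not overlap either, the difference of 0.43 ± 0.17 did not pass (adjusted p 0.0591); it passed with upper quartile scaling (0.0494), library totals alone (0.0313) or a filter of 1 CPM in 3 libraries (0.0475).

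Mx1 and Mx2 encode large GTPases of the dynamin superfamily, to which Drp1 also belongs. Mx1 (chr16:97447035-97462907) read 1.62, 2.28 and 2.47 CPM in wild type and 5.49, 6.35 and 5.47 CPM in KO. All KO libraries were above all wild-type ones, a rise of 1.42 ± 0.16 (edgeR adjusted p 9.14e-05). Mx2 rose from 0.694 ± 0.0313 to 1.32 ± 0.179 CPM (0.93 ± 0.20). Bst2, or tetherin, which holds budding virions at the cell surface, rose a little, from 83.5 ± 3.99 to 102 ± 2.42 CPM (0.29 ± 0.05, adjusted p 0.00116).

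The ISG15 system, a ubiquitin-like modifier with its own ligases and protease, rose in 3 of its genes. Isg15, the modifier, read 2.72, 2.21 and 3.78 CPM in wild type and 4.17, 4.74 and 3.97 CPM in KO. Wild-type replicate 3 came close to the lowest KO library, and the rise of 0.55 ± 0.18 (edgeR adjusted p 0.0262) was not called without wild-type replicate 2 (0.0953), KO replicate 1 (0.0605) or KO replicate 2 (0.0917). Usp18, the protease that removes Isg15 and also restrains the interferon receptor, rose from 7.45 ± 0.515 to 11.2 ± 0.982 CPM (0.59 ± 0.10). Herc6, the ISG15 ligase of the mouse, rose from 12.4 ± 0.962 to 17.2 ± 0.401 CPM (0.47 ± 0.08); 1269 of its exonic bases overlap the gene model Gm45193 on the same strand. Trim25, a ubiquitin ligase that acts on RIG-I, fell from 132 ± 7.87 to 118 ± 3.09 CPM (-0.16 ± 0.05, adjusted p 0.0299). That small fall was not called with library totals alone (-0.08, adjusted p 0.179), or without wild-type replicate 3 (0.0503), KO replicate 2 (0.115) or KO replicate 3 (0.0836).

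The ADP-ribosyltransferases and their partner split. Parp12 rose from 1.08 ± 0.453 to 2.48 ± 0.232 CPM (1.15 ± 0.25, edgeR adjusted p 0.00296), and wild-type replicate 1 was its lowest library at 0.553 CPM. Parp14 read 31.6, 38.2 and 39.3 CPM in wild type and 52.2, 58.8 and 56.6 CPM in KO. Its groups were separate and it rose by 0.61 ± 0.08. Parp9 and Dtx3l, whose products form a complex that attaches ubiquitin, overlap by 682 bases on opposite strands. Dtx3l fell from 111 ± 2.23 to 97.6 ± 1.90 CPM (-0.19 ± 0.05, adjusted p 0.00596), a call lost with library totals alone (-0.11, adjusted p 0.0650). Parp9 was at 69.0 ± 1.27 CPM in wild type against 65.9 ± 2.72 in KO and did not pass; its log2 fold change of -0.07 ± 0.05 turned to 0.0083 with library totals alone. Whether the counting used strand is not given in the sources used here, and reads of the shared stretch may not be separated.

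Schlafen genes, a family first described in thymocytes, also split. Slfn1 fell from 19.0 ± 0.834 to 14.7 ± 0.687 CPM (-0.36 ± 0.07, edgeR adjusted p 0.00183). Slfn8 read 6.22, 8.79 and 10.4 CPM in wild type and 10.8, 14.3 and 13.4 CPM in KO. Its lowest KO library barely exceeded its highest wild-type library, and the rise of 0.58 ± 0.16 lost its call without KO replicate 2 (adjusted p 0.0529). Slfn5, 37.3 kb from Slfn8, was at 4.63 ± 0.669 and 4.91 ± 0.358 CPM, and its log2 fold change of 0.08 ± 0.13 turned to -0.018 without wild-type replicate 1.

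Among the other interferon-induced genes, 6 rose, 1 fell and 1 did not pass. Xaf1, whose product binds and counters the apoptosis inhibitor XIAP (chr11:72301629-72313733), read 1.87, 2.11 and 2.22 CPM in wild type and 5.91, 7.96 and 6.54 CPM in KO. The wild-type libraries were tightly grouped, each KO library was far above them, and the rise was 1.70 ± 0.15 (edgeR adjusted p 3.83e-05, the smallest of the 42). Lgals3bp, a secreted protein that binds galectin-3 (chr11:118392751-118402092), read 14.7, 23.2 and 21.9 CPM in wild type and 38.2, 42.5 and 40.3 CPM in KO. Wild-type replicate 1 was low, the groups did not overlap, and the gene rose by 1.01 ± 0.13. Ifi44 had 0, 3 and 1 counts in wild type and 13, 11 and 14 in KO. The KO to wild-type ratio of its summed counts, relative to library size, was 8.04, with a 95% interval from counting error alone of 2.89 to 31.0, and its fitted log2 fold change was 2.90 ± 0.56. Rtp4, which encodes a chaperone of membrane receptors, resembled it, with 1, 2 and 1 counts in wild type and 11, 15 and 13 in KO. Its ratio was 8.25 (2.98 to 31.8), and with no filter its log2 fold change was 2.94 (edgeR adjusted p 4.94e-05). Both genes were thus nearly silent in wild type and still at a very low level in KO.

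Several abundant genes of this kind moved little. Ifi35 rose from 37.9 ± 1.17 to 46.3 ± 1.14 CPM (0.29 ± 0.05). Ifi27l2a rose from 77.3 ± 3.16 to 86.1 ± 2.99 CPM (0.16 ± 0.05, edgeR adjusted p 0.0295), and Trim30a, a ubiquitin ligase, from 77.0 ± 2.90 to 84.9 ± 3.53 CPM (0.14 ± 0.05, adjusted p 0.0453). These 2 calls were fragile. That of Ifi27l2a was lost with DESeq2 (adjusted p 0.0501) and without wild-type replicate 3, KO replicate 1 or KO replicate 2 (0.130, 0.0739 and 0.118). That of Trim30a was lost with DESeq2 size factors, DESeq2 or no filter (0.0606, 0.0829 and 0.0756) and without wild-type replicate 2 or 3 or KO replicate 1 or 3 (0.103 to 0.182). Phf11b fell from 36.1 ± 0.394 to 27.6 ± 1.501 CPM (-0.38 ± 0.06, adjusted p 0.000466); it shares 47.0% of its 50-base words, chiefly with Phf11a. Tor3a, a torsin ATPase of the endoplasmic reticulum, was at 18.9 ± 0.793 and 20.01 ± 0.418 CPM and did not pass (0.08 ± 0.06).

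**Figure D3:**
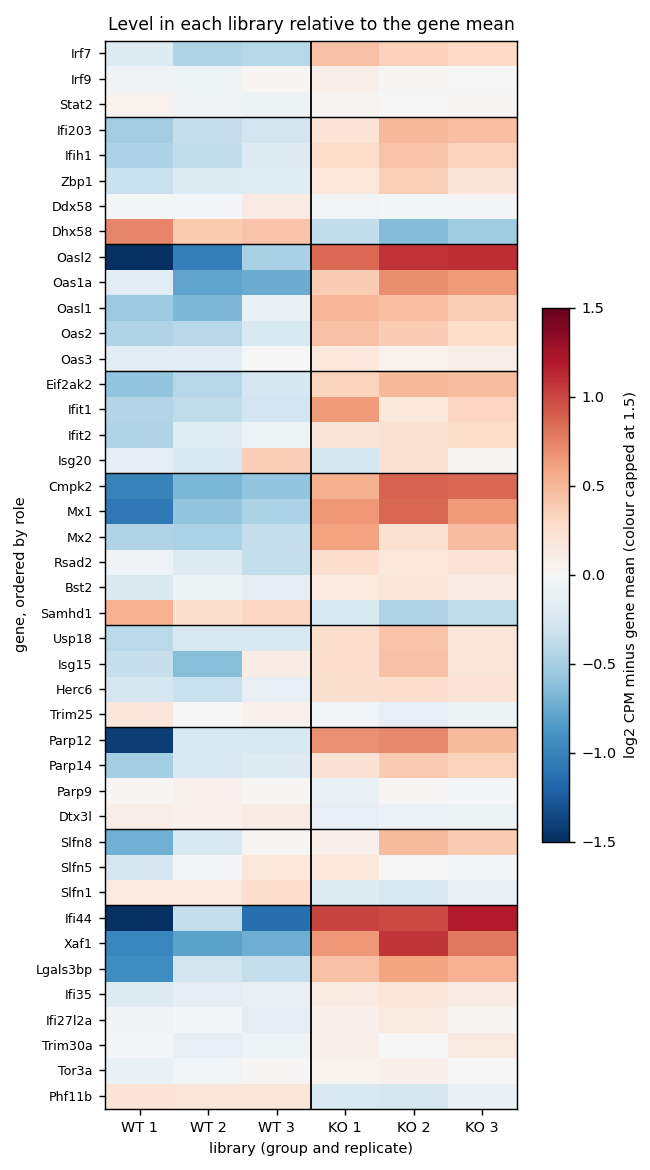
Level of each of the 42 tested genes (rows, by role) in each library (columns), as log2 CPM minus the mean of the gene over the 6 libraries, with colour limited at 1.5. The KO columns are red for most genes; Dhx58 and Samhd1 show the reverse, and the wild-type replicate 1 column holds the darkest blue cells, among them Oasl2, Parp12 and Ifi44.

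Wild-type replicate 1 held the lowest of the 3 wild-type values in 25 of the 42 genes, against 13 for replicate 2 and 4 for replicate 3. The mean centred log2 CPM over the 42 genes was -0.35, -0.25 and -0.15 in the wild-type libraries and 0.23, 0.28 and 0.25 in the KO libraries. Without wild-type replicate 1, 29 genes were higher and 6 lower, and the same 34 genes stayed called. The added gene was Rtp4, which then passed the filter. Across every other setting run, 26 of the 34 called genes kept their call in each setting that tested them; the 8 that lost it in at least 1 are Oas2, Oas3, Isg15, Trim25, Dtx3l, Slfn8, Ifi27l2a and Trim30a. No call changed its direction (0 genes).

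The level of a gene in the culture went with its direction of change. Under a mean of 5 CPM, 13 of 16 tested interferon genes were higher and 0 lower, with a median log2 fold change of 0.90. Over all 4202 tested genes in that band, 757 were higher and 581 lower, and the median was 0.04. From 5 to 25 CPM, 7 of 9 were higher and 1 lower (median 0.47), beside 1026 and 658 of 3023 genes (median 0.08). At 25 CPM or more, 8 of 17 were higher and 5 lower (median 0.06), beside 2017 and 2474 of 6984 genes (median -0.03). The first band holds Ifi44, which had to be higher to be tested.

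**Figure D4:**
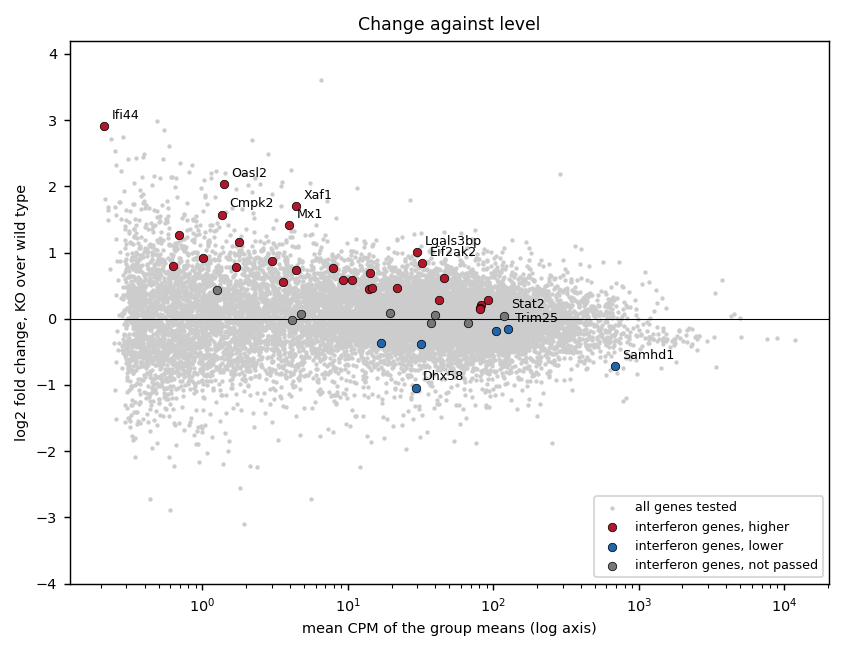
Log2 fold change (y axis, KO over wild type) against the mean CPM of the genotype means (x axis, log scale) for all tested genes (light grey, 2 of them outside the y axis) and the 42 interferon response genes (coloured by call). Under 5 CPM no coloured point is blue, while at 25 CPM or more they lie on both sides of zero, from Lgals3bp and Eif2ak2 above it to Dhx58 and the most abundant gene, Samhd1, below it.

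Per kilobase of exon, the most abundant genes were Ifi27l2a, at 167 CPM per kb in wild type and 186 in KO, Samhd1 at 93.5 and 57.1, and Bst2 at 92.5 and 113. Samhd1 alone carried 45.5%, 40.7% and 41.2% of the summed CPM of the 45 genes in the wild-type libraries and 31.2%, 27.6% and 28.8% in the KO libraries. The summed level was 2102, 1927 and 2000 CPM in wild type and 1825, 1765 and 1779 CPM in KO, so it was lower in every KO library. Without Samhd1 it was 1145, 1143 and 1175 CPM in wild type and 1256, 1278 and 1267 CPM in KO, higher in every KO library.

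In the genome, 12 of the 45 genes form 6 neighbouring pairs within 50 kb, and the 45 are spread over 15 chromosomes. Both genes of a pair rose for Oasl2 with Oasl1 and for Oas2 with Oas3. In the pairs of Rsad2 with Cmpk2, Slfn5 with Slfn8 and Parp9 with Dtx3l, 1 gene was called and the other did not pass. Ifit2 rose beside Ifit3, which was not tested.

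No receptor or kinase gene of the pathway was called higher, and no ligand gene had enough counts to be tested. Of 17 type I interferon ligand genes, 13 had 0 counts in every library, and their summed counts were 0 in each wild-type library and 1, 1 and 2 in the KO libraries. A count of 0 allows 3 counts, which is 0.0840 to 0.128 CPM per library, so ligand RNA below that level could be missed. RNA made earlier in the culture was not measured. Ifnar1, the first receptor chain, fell from 188 ± 10.9 to 152 ± 8.80 CPM (-0.31 ± 0.06, edgeR adjusted p 0.00172). Ifnar2 was at 40.8 ± 1.21 and 39.6 ± 0.613 CPM and did not pass, with a log2 fold change of -0.04 ± 0.05 that turned to 0.030 with library totals alone. Jak1 fell from 417 ± 21.6 to 354 ± 10.2 CPM (-0.24 ± 0.05), and Tyk2 from 124 ± 1.68 to 110 ± 3.69 CPM (-0.16 ± 0.05), the latter not called with library totals alone (adjusted p 0.165) or without KO replicate 2 (0.0630) or 3 (0.0723). The 4 receptor and kinase genes thus included 3 lower and 0 higher.

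The other lists of the pathway held calls in both directions, and their counts stand beside 26.7% higher and 26.1% lower among all tested genes, so for short lists with shares near these the counts say nothing particular. Of 7 negative regulators, 2 rose and 4 fell, among them Ptpn6, a phosphatase that damps cytokine receptors (372 ± 14.8 to 307 ± 1.56 CPM, -0.28 ± 0.04), and Pias1, a SUMO ligase that inhibits STAT signalling (-0.31 ± 0.06). Socs1, a feedback inhibitor of the receptor kinases, had the largest change of that list and rose, from 43.0 ± 11.7 to 75.7 ± 2.08 CPM (0.81 ± 0.15, edgeR adjusted p 0.00148); it was chosen after its value was seen. Of 6 further interferon regulatory factors, 2 rose and 2 fell. The falls were Irf2, a repressor at interferon response elements (112 ± 7.19 to 78.7 ± 1.39 CPM, -0.51 ± 0.06), and Irf1, an activator that interferon gamma induces (-0.42 ± 0.06). Among 14 tested genes of nucleic acid sensing and induction, 4 rose, 3 fell and 7 did not pass. Mb21d1, which encodes the DNA sensor cGAS, rose by 0.64 ± 0.07, and Adar, which edits double-stranded RNA, by 0.57 ± 0.09. Of 48 further interferon-stimulated genes that could be tested, 22 rose, 7 fell and 19 missed the threshold, and the median log2 fold change was 0.27; Ifitm3, which blocks viral entry, rose from 5.75 ± 0.229 to 11.3 ± 0.204 CPM (0.97 ± 0.09) and Sp140 fell (-0.50 ± 0.05). Of the 18 Gbp and Irg GTPase genes, which interferon gamma induces strongly, 6 rose, 4 fell and 8 missed the threshold, and the median was 0.08. Gbp7 rose by 0.57 ± 0.06 and Gbp8 fell (-0.45 ± 0.06).

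**Figure D5:**
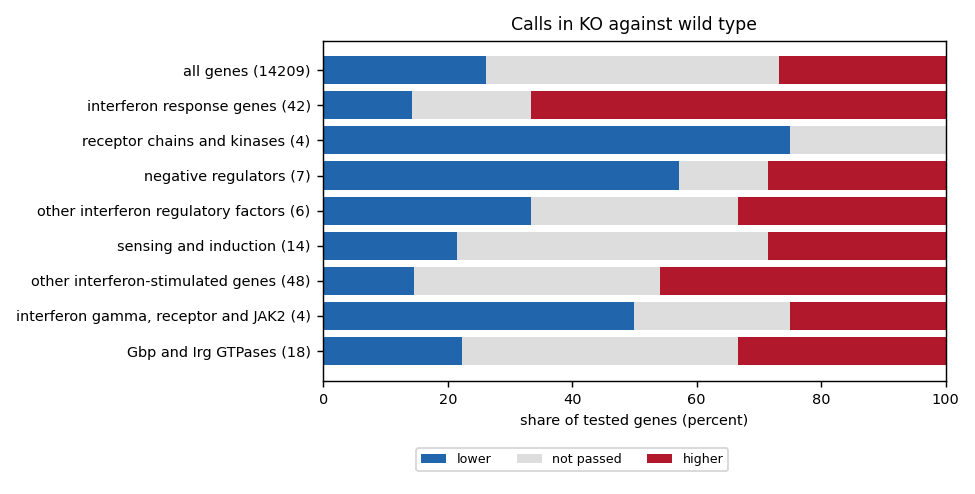
Share of tested genes (x axis, percent) that were called lower (blue), not passed (grey) or called higher (red) in KO, for all genes tested, the interferon response genes and 7 lists of the pathway, with the number tested in brackets. The interferon response genes show 28 of 42 higher, the receptor and kinase list 0 of 4 higher and 3 lower.

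Ifng, the gene of interferon gamma, moved with these genes. It read 64.2, 121 and 126 CPM in wild type and 420, 542 and 458 CPM in KO. All KO libraries were above all wild-type ones, wild-type replicate 1 was the lowest, and the rise was 2.18 ± 0.21 (edgeR adjusted p 4.79e-05). Ifngr2, a chain of its receptor, fell from 34.4 ± 3.46 to 22.8 ± 0.638 CPM (-0.59 ± 0.08). The part of Ifng in the levels of the 45 genes was not tested.

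Markers of other cells that can carry the response also moved. Their calls stand beside 26.7% higher and 26.1% lower among all tested genes, so counts near these shares say nothing particular. Summed NK cell markers stood at 103 to 123 CPM in wild type against 164 to 192 in KO. Of these 7 genes, 5 were tested, 4 were called higher and none was at 0 in all libraries. Gzma carried most of that sum, at 92.6 ± 13.1 CPM in wild type and 141 ± 11.1 in KO. Without Gzma the sums were 18.3 to 25.3 and 35.9 to 42.8 CPM, and most of that was Eomes, at 18.5 ± 3.08 and 32.8 ± 3.12 CPM. Ncr1 was at only 0.181 and 0.634 CPM and Klrb1c at 1.20 and 2.38 CPM. Itga2 did not pass, and Klra8 and Klra4 were not tested. Whether NK cells were present was not tested. Megakaryocyte markers stood at 7.58 to 10.1 and 20.3 to 24.0 CPM, with 4 of 6 tested, all 4 higher, and none at 0. Red cell precursor markers stood at 0.383 to 0.805 and 1.32 to 1.88 CPM. Only 1 of these 6 was tested, and it was higher, with Hba-a2 at 0. Mast cell and basophil markers summed to 55.8 to 64.1 and 34.3 to 37.6 CPM, with 5 of 6 higher, 1 lower and none at 0. Kit, the gene that fell (57.7 ± 3.93 to 24.6 ± 0.800 CPM, -1.23 ± 0.06), carried that sum, and the other 5 genes summed to 2.38 to 3.02 CPM in wild type but 10.2 to 13.4 in KO. B cell markers stood at 528 to 550 and 481 to 508 CPM, with 2 of 9 higher, 2 lower and none at 0, and without Ighm at 192 to 223 and 209 to 225 CPM, which overlap. Their part in the levels of the 45 genes was not tested. Monocyte and macrophage markers, by contrast, summed to 28.4 to 31.7 CPM in wild type against 22.2 to 25.3 in KO. Cd68 carried most of that sum, and without it the sums were 3.83 to 4.38 and 3.09 to 4.06 CPM, which overlap. Of these 12 genes, only 3 were tested, 1 higher and 2 lower. Cd68 and Itgam were lower, while Lyz2 rose from 0.187 ± 0.0306 to 0.489 ± 0.113 CPM (1.36 ± 0.34). Fcgr1, C1qa, C1qb and Marco were at 0 in every library. Plasmacytoid dendritic cells, the main makers of type I interferon, had marker sums of 48.6 to 53.1 and 41.3 to 42.3 CPM. Of the 7 genes, 4 were tested, of which 1 was higher and 3 were lower, and Siglech was at 0. Spib carried most of that sum, and without it the sums were 18.82 to 21.63 and 15.96 to 16.41 CPM. Ccr9 and Klk1 had at most 1 count in any library, and whether these cells were present was not tested. Conventional dendritic cell markers summed to 73.6 to 75.4 and 66.8 to 68.4 CPM. Of these 7 genes, 4 were tested, 0 higher and 2 lower, and Xcr1 and Cd209a were at 0. Without Batf3 the sums were 12.8 to 15.5 and 13.5 to 14.1 CPM. Neutrophil markers, none of them tested, were at 0.0426 to 0.412 and 0.209 to 0.476 CPM, with S100a8, S100a9 and Retnlg at 0.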

How the data were processed

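RNA of activated mouse spleen T cells in 6 libraries (3 wild type, 3 KO) was measured with a stranded poly(A) library kit, per the labels' protocols. The authors deposited raw counts per gene symbol, with no normalization. Tools named in the submitters' processing notes, with no role or order, are STAR 2.5.2, HTSeq 0.6.1, FastQC, Cufflinks and DESeq2 1.12, beside the build mm10. Strand setting, annotation release and the treatment of reads with several matches were not given in the sources used here. Paralogs and overlapping genes are therefore uncertain.

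Groups and replicate numbers came from the labels. Counts were tested with edgeR 4.0.16 in R 4.3.3: TMM factors of 0.949 to 1.03, the filterByExpr filter, the quasi-likelihood F test for genotype (4 residual degrees of freedom), and p-values adjusted by Benjamini-Hochberg over 14209 genes. The biological coefficient of variation was 6.13%. CPM values use the TMM factors. The 45 genes and all gene lists were chosen with earlier results of these data known. Every one of the 45 genes is accounted for; outside them Dnm1l, the receptor list and, per pathway list, the 2 genes with the smallest adjusted p are named. Some items of the pathway lists are not reported here. Promoter stretches are the 3 largest rises among called genes with a match, and the only 2 falls with one. Ifit1, Socs1, Oas1b, Oas1c, Kit, Xist and the Y-linked genes were added after their values were seen. Alternatives were other scalings, DESeq2 1.42.0, limma-voom (limma 3.58.1), other filters, a replicate block, each library left out, and an adjusted p under 0.01. Positions and exon lengths come from GENCODE release M21 of the same build, GRCm38, and promoters from RefSeq (GRCm38.p6). The procedure was tested on simulated data.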

Additional observations from a re-analysis of the deposited data

How the results depend on the processing

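Over the alternatives, 25 to 30 of the interferon genes were higher and 4 to 6 lower in KO; an adjusted p under 0.01 gave 22 and 5. Their median log2 fold change of 0.47 was 0.54 with library totals alone, and ran from 0.45 to 0.53 when each library was left out in turn. Values that changed sign belonged to genes that did not pass the test: with library totals alone Ddx58 (0.014), Isg20 (0.051), Parp9 (0.0083) and Ifnar2 (0.030), and with each library left out Isg20 (-0.14 to 0.20) and Slfn5 (-0.018 to 0.18). The cause was not tested. A search for TTCNNNGAA in place of GAAANNGAA found 7 genes in place of 18. Under the filter of 1 CPM in 3 libraries, Oas1a, Oas2 and Ifi44 were not tested.

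Replicate numbers are shared between genotypes, but nothing in the labels pairs them, and deviations of same-numbered libraries correlated at 0.17, 0.13 and 0.01, with wild-type replicate 3 nearest to KO replicate 2. With the replicate block, 28 interferon genes were higher and 6 lower, the same 34, with a median of 0.47, and over all genes 3992 were higher and 3908 lower. Counts limit Ifi44, Rtp4, Ifi204 and Ifit3, which had at most 39 counts over the 3 libraries of a genotype.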
